A study of Mus musculus with 6 samples.

Results

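Transcripts of 10 endothelial marker genes were measured in mouse aortae whose endothelium had been stripped before RNA extraction. The genes are Pecam1, Cdh5, Vwf, Kdr, Tek, Tie1, Eng, Nos3, Emcn and Cldn5, and they were taken by name as 10 of the 55453 rows of a table of read counts per gene. The homozygous mice (KO) carried floxed Srf on both copies and the control mice (Ctrl) on 1 copy. All of them were hemizygous for Itga8-CreERT2, a tamoxifen-inducible Cre recombinase placed under the smooth muscle integrin gene Itga8, so the control cells also lose 1 copy of Srf where Cre acts. Every mouse received 5 daily intraperitoneal doses of 33 mg/kg tamoxifen, and aortae were collected 10 days after dosing ended. The labels do not give the ages of the mice. Per the labels' protocols, adventitia and endothelium were gently removed, and each aorta was frozen on its own. The counts cover 5 libraries, KO2 and KO3 against Ctrl1, Ctrl2 and Ctrl3, numbered as in the labels. KO1 was not analysed here, and the design text says that 1 homozygous sample was set aside as an outlier without naming it.

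Endothelial cells line the vessel lumen as a thin layer held together by VE-cadherin and claudin-5. They sense vascular endothelial growth factor through the receptor Kdr and angiopoietins through Tek and its relative Tie1, and they release nitric oxide, made by Nos3, which relaxes the smooth muscle beneath. Endothelium of large arteries, capillaries, veins and lymphatics shares these genes but in unequal amounts. Von Willebrand factor is rich in large vessels, while Kdr is known to be higher in capillaries.

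For Pecam1, Vwf, Tek, Tie1 and Eng the KO libraries lay on opposite sides of Ctrl, KO2 above and KO3 below every Ctrl library. The share of all genes tested with both at once was not counted. Over all 10 markers KO2 stood above every Ctrl library for 9, as for 27.5% of all 18192 genes tested, and KO3 below every Ctrl library for 6, as for 30.0% of all genes tested. Cdh5, Emcn and Cldn5 lay inside the Ctrl range in KO3, and Nos3 did so in KO2. Kdr was at nearly the same level in KO2 and KO3 and above all 3 Ctrl libraries in both, as were 17.4% of all genes tested. By edgeR 0 markers passed in either direction, and 0.0% of all genes tested did.

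Library totals were 27685188 and 31873243 counts in KO2 and KO3 and ranged from 26177821 to 34311855 counts in Ctrl. Values below are CPM, library-size-scaled read counts after adjustment by the trimmed mean of M-values (TMM), and log2 fold changes are KO over Ctrl with their standard error (SE). Srf stood at 45.0 and 38.6 CPM in KO2 and KO3, against 56.1, 64.4 and 68.3 CPM in Ctrl1, Ctrl2 and Ctrl3, with an edgeR adjusted p of 0.115. The smooth muscle markers Myh11, Acta2, Cnn1, Lmod1, Smtn and Synpo2 summed to between 11936 and 12507 CPM in KO and to between 20655 and 21763 CPM in Ctrl, so the labelled tissue carried its defining transcripts in every library. Markers of other tissues also differed between libraries. Skeletal muscle markers summed to 667 and 1891 CPM in KO2 and KO3 and to 375, 213 and 7.36 CPM in Ctrl1, Ctrl2 and Ctrl3. Adipocyte markers (Adipoq, Plin1, Cidec, Fabp4, Lipe and Retn) summed to 2135 and 2250 CPM in KO2 and KO3 and to 1176, 1645 and 1112 CPM in Ctrl1, Ctrl2 and Ctrl3. Their part in the results below was not tested.

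The start regions of the receptor genes Kdr, Tek and Eng are shown because Kdr, Tek and Eng are receptors of one cell type whose values in KO3 lay above, below and slightly below Ctrl. Each run is the 250 bases before the annotated start in RefSeq (GRCm38.p6), and capitals mark the letters GGAA or their complement TTCC, the core bound by ETS factors, which drive many endothelial genes.
Kdr (chr5:75978456-75978705, minus strand): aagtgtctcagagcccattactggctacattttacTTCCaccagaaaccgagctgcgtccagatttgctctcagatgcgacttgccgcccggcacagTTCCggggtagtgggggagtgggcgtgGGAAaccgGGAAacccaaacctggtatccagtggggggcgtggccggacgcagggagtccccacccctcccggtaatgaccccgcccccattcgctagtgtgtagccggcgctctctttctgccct
Tek (chr4:94739039-94739288, plus strand): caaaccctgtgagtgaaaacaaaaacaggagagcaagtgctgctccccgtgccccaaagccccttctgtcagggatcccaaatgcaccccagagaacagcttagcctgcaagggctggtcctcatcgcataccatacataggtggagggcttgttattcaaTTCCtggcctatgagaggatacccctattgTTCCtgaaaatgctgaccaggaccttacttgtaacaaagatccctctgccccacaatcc
Eng (chr2:32646345-32646594, plus strand): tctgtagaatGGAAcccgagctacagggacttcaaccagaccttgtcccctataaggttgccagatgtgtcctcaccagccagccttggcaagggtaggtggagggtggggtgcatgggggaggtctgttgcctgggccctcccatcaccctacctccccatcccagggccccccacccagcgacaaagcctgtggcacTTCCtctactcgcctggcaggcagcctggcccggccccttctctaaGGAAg

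Such windows were found for 6 of the 10 genes (Kdr, Tek, Tie1, Eng, Emcn and Cldn5). Searched on both strands, GGAA occurred 4 times in the window of Kdr, 2 times in that of Tek, 7 times in that of Tie1, 3 times in that of Eng, 4 times in that of Emcn and 0 times in that of Cldn5. Among 32841 windows of all genes, 93.5% held GGAA, with a median of 3 matches, so 5 of 6 is near the background. The longer AGGAAG, which contains GGAA, was found in 3 of the 6 (Tie1, Eng and Emcn) and in 29.5% of all windows. The CArG box, the site bound by serum response factor, was matched in 0 of the 6 and in 1.47% of all windows. These matches describe letters in a window only.

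Residual endothelial RNA was present in every library. The 10 markers summed to 1275 and 499 CPM in KO2 and KO3 and to 891, 1127 and 865 CPM in Ctrl1, Ctrl2 and Ctrl3. By this sum KO2 was above and KO3 below the whole Ctrl range. Vwf and Pecam1 are the most abundant of the 10 and weigh most in the sum. Taken singly, KO3 was below every Ctrl library for 6 markers, inside the Ctrl range for 3 and above it for 1. The lowest count of any marker in any library was 158 (Emcn in Ctrl3), with an exact Poisson 95% interval of 134 to 185 that covers counting error only. In bulk RNA, fewer endothelial cells and less RNA per endothelial cell cannot be told apart.

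Levels of different genes were compared as CPM per kb of the longest protein-coding transcript in GENCODE M21. In Ctrl libraries Pecam1 was the highest at 80.6 ± 8.71 CPM per kb (SD, n = 3), followed by Vwf at 37.6 ± 4.71 and Eng at 24.4 ± 1.27. Cdh5 (14.4 ± 3.33), Nos3 (12.9 ± 3.65), Tie1 (12.7 ± 2.39) and Tek (10.5 ± 2.35) followed, each overlapping its neighbour in this order within 1 SD. Cldn5 stood at 7.77 ± 2.64, Kdr at 5.83 ± 2.80 and Emcn at 3.16 ± 0.971 CPM per kb, and neighbours in that order also overlapped. The order in KO2 was the same, and there Pecam1 had 98.7 and Vwf 52.4 CPM per kb. In KO3 Vwf took rank 4 at 10.9 CPM per kb, against rank 2 in every Ctrl library, and Kdr rank 5 at 10.1 CPM per kb, against rank 9 in every Ctrl library. Relative to Myh11, the myosin heavy chain of smooth muscle, the Pecam1 level per kb was 11.8% in KO2 and 4.23% in KO3, against 5.24%, 6.83% and 5.40% in Ctrl1, Ctrl2 and Ctrl3. Myh11 itself was lower in both KO libraries, at 5484 and 5165 CPM, than in Ctrl1, Ctrl2 and Ctrl3, at 9439, 8695 and 9181 CPM.

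**Figure D1:**
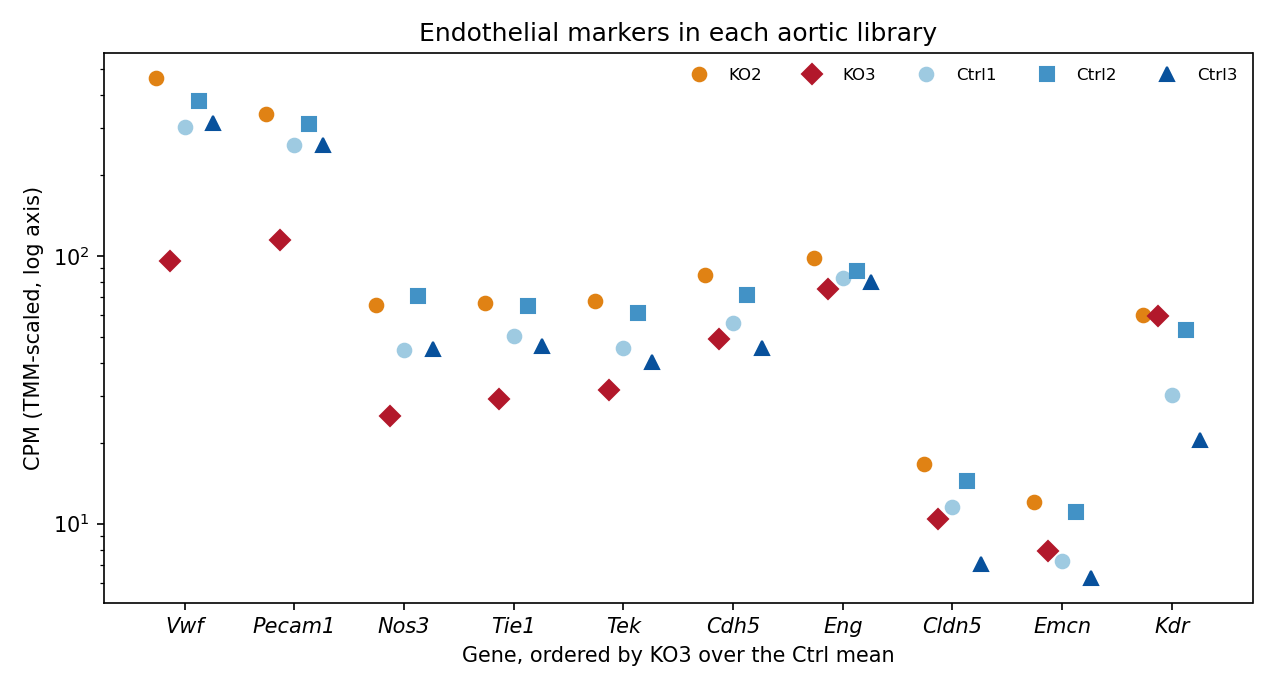
CPM after TMM scaling (log axis) of the 10 endothelial markers in each library, ordered by the level in KO3 over the Ctrl mean. KO3 is the lowest library for Vwf, Pecam1, Nos3, Tie1, Tek and Eng, and for Kdr KO2 and KO3 stand at 60.1 and 59.9 CPM, above all 3 Ctrl libraries.

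Vwf encodes von Willebrand factor, the adhesive protein that endothelium stores and that platelets also carry (GRCm38 chromosome 6, 125546774 to 125686679, plus strand). It stood at 463 and 96.0 CPM in KO2 and KO3, against 303, 380 and 315 CPM in Ctrl1, Ctrl2 and Ctrl3. KO2 was 1.39 times and KO3 0.289 times the Ctrl mean, so the KO libraries enclosed the whole Ctrl range and differed from each other 4.82-fold. The log2 fold change over both was -0.25 (SE 0.545, edgeR adjusted p = 0.867). Platelet markers were low in all libraries, with a sum over Pf4, Itga2b, Gp9, Gp1bb, Gp6 and Ppbp of 10.9 and 12.9 CPM in KO2 and KO3 and of 8.21 to 13.8 CPM in Ctrl, and Gp9, Gp1bb and Gp6 were too low to be tested.

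Pecam1, an adhesion molecule of the endothelial junction (chromosome 11, 106654217 to 106750628, minus strand), followed the same order. It stood at 340 and 115 CPM in KO2 and KO3, against 260, 312 and 260 CPM in Ctrl1, Ctrl2 and Ctrl3. KO2 exceeded every Ctrl library and KO3 was below every one, at 0.414 times the Ctrl mean. The log2 fold change was -0.29 (SE 0.392, edgeR adjusted p = 0.773).

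Nos3, the endothelial nitric oxide synthase (chromosome 5, 24364810 to 24384474, plus strand), stood at 65.5 and 25.2 CPM in KO2 and KO3, against 44.4, 70.7 and 44.8 CPM in Ctrl1, Ctrl2 and Ctrl3. It was the one marker for which KO2 lay inside the Ctrl range, while KO3 was below it. The log2 fold change was -0.24 (SE 0.392, edgeR adjusted p = 0.823). Its exons share 1040 bases with the antisense gene Gm15587 and 294 bases with Atg9b on the opposite strand, and 10.2% of its 100-base words occur in transcripts of other genes. Since the strand setting of the counting is not given in the sources used here, reads of these genes may be mixed into its count.

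Tie1 and Tek are paired receptor tyrosine kinases of the angiopoietin system, Tek binding the ligands and Tie1 modulating Tek. Tie1 (chromosome 4, 118471191 to 118490061, minus strand) stood at 67.0 and 29.3 CPM in KO2 and KO3, against 50.3, 65.3 and 46.0 CPM in Ctrl1, Ctrl2 and Ctrl3. Tek (chromosome 4, 94739289 to 94874976, plus strand) stood at 67.8 and 31.5 CPM in KO2 and KO3, against 45.1, 61.1 and 40.1 CPM in Ctrl1, Ctrl2 and Ctrl3. For both receptors KO2 was above and KO3 below every Ctrl library. Tek per kb was 92.0% and 97.9% of Tie1 in KO2 and KO3, against 81.6%, 85.1% and 79.3% in Ctrl1, Ctrl2 and Ctrl3. Both KO ratios were above the Ctrl range, but how often this holds for other gene pairs was not counted. The log2 fold changes were -0.16 (SE 0.326, edgeR adjusted p = 0.853) for Tie1 and 0.02 (SE 0.317, edgeR adjusted p = 0.983) for Tek.

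The angiopoietin ligands and the phosphatase Ptprb, which acts on Tek, were read beside them. Of the 5 genes of that list, 0 passed the edgeR test in either direction. Ptprb stood at 399 and 141 CPM in KO2 and KO3, against 297, 378 and 306 CPM in Ctrl1, Ctrl2 and Ctrl3, the same order of libraries as Tek and Tie1 in KO. Angpt2 had a log2 fold change of -0.01 (SE 0.279, edgeR adjusted p = 0.99).

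Kdr, the main signalling receptor for vascular endothelial growth factor (chromosome 5, 75932827 to 75978458, minus strand), differed from these genes in KO3. It stood at 60.1 and 59.9 CPM in KO2 and KO3, against 30.3, 52.8 and 20.5 CPM in Ctrl1, Ctrl2 and Ctrl3. The groups did not overlap, with KO higher, as for 17.4% of all genes tested. Kdr was the single marker of 10 whose groups were apart, and 0 were apart with KO lower, as for 18.2% of all genes. The log2 fold change was 0.79 (SE 0.338) with an unadjusted p of 0.0511 and an adjusted p of 0.32 by edgeR, so it did not pass. With no filter on low counts edgeR called it higher (log2 fold change 0.81, adjusted p = 0.00828), a setting that called 3.23% of the 30400 genes higher and 1.42% lower, while DESeq2 gave an adjusted p of 0.513 and limma-voom 0.26. Leaving out Ctrl2, the Ctrl library highest for Kdr, raises its fold change by construction. It gave a log2 fold change of 1.25 (edgeR adjusted p = 0.0554), in a fit that called 139 genes higher and 9 lower. Without Ctrl1 the log2 fold change was 0.71 (edgeR adjusted p = 0.467) and without Ctrl3 0.55 (edgeR adjusted p = 0.331).

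The ratio of Kdr to most other markers was highest in KO3. Kdr per kb was 19.4% of Vwf in KO2 and 93.0% in KO3, against 14.9%, 20.7% and 9.71% in Ctrl1, Ctrl2 and Ctrl3. Relative to Nos3 it was 64.0% and 166% in KO2 and KO3, against 47.6%, 52.1% and 31.9% in Ctrl1, Ctrl2 and Ctrl3. Relative to its fellow receptor Flt1 it was 73.2% and 85.2% in KO2 and KO3, against 68.7%, 89.1% and 45.3% in Ctrl1, Ctrl2 and Ctrl3, so this ratio stayed inside the Ctrl range.

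**Figure D2:**
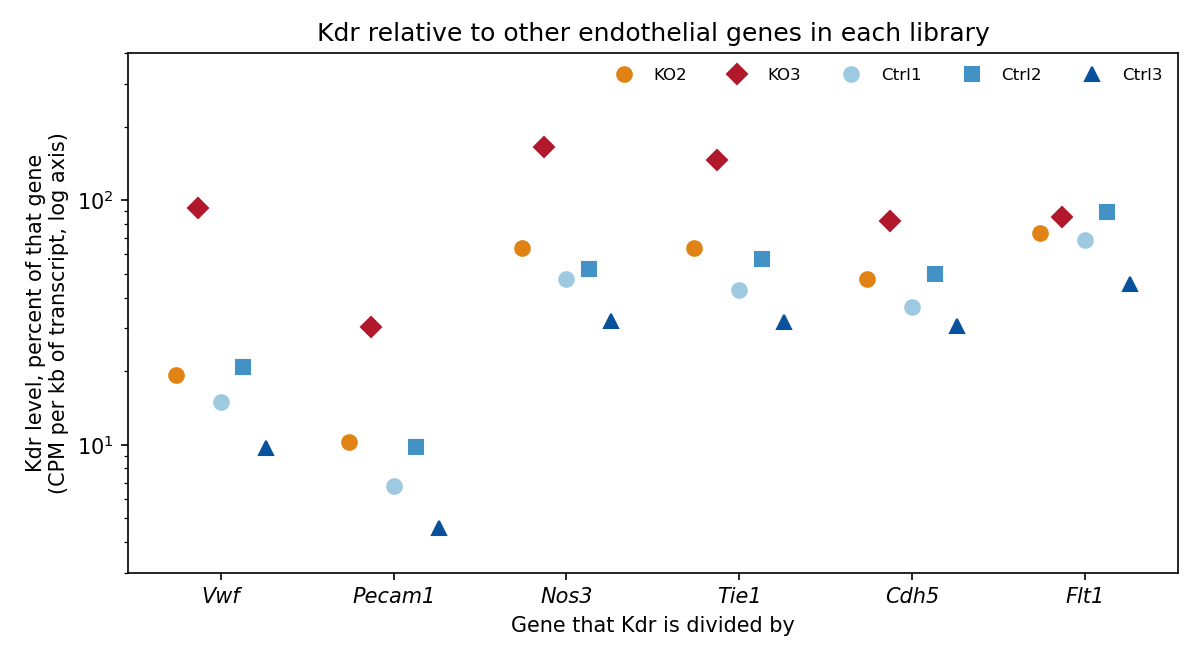
Kdr level per kb of transcript as a percent of 6 other endothelial genes in each library (log axis). KO3 lies above the other 4 libraries for Vwf, Pecam1, Nos3, Tie1 and Cdh5, and between Ctrl1 and Ctrl2 for Flt1.

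Of the 9 other genes and receptors of the growth factor system, 0 passed adjusted over all genes, 4 were higher at an unadjusted p under 0.05 and 0 were lower, where 9.04% of all tested genes were higher and 6.75% lower at that level. Flt1, a second receptor of the family, stood at 95.4 and 81.7 CPM in KO2 and KO3, against 51.3, 68.9 and 52.7 CPM in Ctrl1, Ctrl2 and Ctrl3, with a log2 fold change of 0.62 (SE 0.15, edgeR adjusted p = 0.139). The co-receptor Nrp1 stood at 214 and 195 CPM in KO2 and KO3, against 162, 189 and 130 CPM in Ctrl1, Ctrl2 and Ctrl3. The ligand Vegfa stood at 106 and 100.01 CPM in KO2 and KO3, against 54.6, 92.0 and 75.2 CPM in Ctrl1, Ctrl2 and Ctrl3. For Flt1, Nrp1 and Vegfa alike both KO libraries were above all Ctrl libraries. This held for 5 of the 9 genes and for 17.4% of all genes tested. The groups overlapped for the others, and Vegfd and Pgf had log2 fold changes of -0.01 and 0.00.

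Cdh5 and Cldn5 build the endothelial adherens and tight junctions. Cdh5, VE-cadherin (chromosome 8, 104101625 to 104144511, plus strand), stood at 85.3 and 49.0 CPM in KO2 and KO3, against 56.0, 71.6 and 45.2 CPM in Ctrl1, Ctrl2 and Ctrl3. Cldn5, claudin-5 (chromosome 16, 18776847 to 18778262, plus strand, 1 exon), stood at 16.8 and 10.4 CPM in KO2 and KO3, against 11.5, 14.5 and 7.04 CPM in Ctrl1, Ctrl2 and Ctrl3. For both genes KO2 was the highest library and KO3 lay inside the Ctrl range. The log2 fold changes were 0.22 (SE 0.264, edgeR adjusted p = 0.74) for Cdh5 and 0.30 (SE 0.315, edgeR adjusted p = 0.703) for Cldn5. Among 11 partner genes of these junctions 0 passed in either direction, and the catenin Ctnnb1, which binds cadherins in every cell type, had a log2 fold change of -0.15 (SE 0.109, edgeR adjusted p = 0.548).

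Eng, endoglin, a co-receptor of the TGF-beta and BMP pathway (chromosome 2, 32646595 to 32682669, plus strand), varied least. It stood at 98.4 and 75.4 CPM in KO2 and KO3, against 83.1, 88.3 and 79.6 CPM in Ctrl1, Ctrl2 and Ctrl3. KO2 was above and KO3 below the Ctrl range, 1.31-fold apart, and the log2 fold change was 0.05 (SE 0.129, edgeR adjusted p = 0.88). Of 10 genes of its pathway 0 passed in either direction. Bmpr2, its most abundant member and a BMP receptor, had a log2 fold change of -0.20 (SE 0.0936, edgeR adjusted p = 0.368).

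Emcn, endomucin, a surface sialomucin (chromosome 3, 137341067 to 137432185, plus strand), was the least abundant per kb. It stood at 12.0 and 7.89 CPM in KO2 and KO3, against 7.23, 11.03 and 6.29 CPM in Ctrl1, Ctrl2 and Ctrl3. KO3 lay inside the Ctrl range, and the log2 fold change was 0.28 (SE 0.281, edgeR adjusted p = 0.685).

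Counted together, 0 of the 10 markers were higher and 0 lower by edgeR after Benjamini-Hochberg adjustment over 18192 genes, where the test called 0.0% of genes in each direction. DESeq2 called 0 of the 10 in either direction, against 3.35% of genes higher and 2.62% lower, and limma-voom called 0 of the 10, against 0.0% higher and 0.0055% lower. At an unadjusted edgeR p under 0.05 the count was also 0 of 10 in each direction. The median log2 fold change of the 10 was 0.04, beside -0.02 over all genes tested.

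Each KO library was also read alone. KO2 was above every Ctrl library for 9 of the 10 markers and below for 0, while 27.5% of all tested genes were above and 30.5% below. KO3 was below every Ctrl library for 6, inside for 3 and above for 1, while 30.0% of all tested genes were below and 28.5% above. Fitted without KO2, the median was -0.43, and 5 markers had an unadjusted p under 0.05 and were lower (4.08% of all genes) and 0 were higher (6.47% of all genes), though 0 passed adjusted over all genes. In that fit Vwf had a log2 fold change of -1.80 (SE 0.196, edgeR adjusted p = 0.106) and Pecam1 of -1.28 (SE 0.177, edgeR adjusted p = 0.171). Fitted without KO3, the median was 0.48 and all 10 values were positive, with 1 marker higher at an unadjusted p under 0.05 (4.85% of all genes) and 0 lower (3.45% of all genes). That marker was Vwf at 0.48 (SE 0.17, edgeR adjusted p = 0.566). In both fits the lone KO library is assumed to vary like the Ctrl libraries, and both share the Ctrl libraries. With an added term for the label numbers, a fit that rests on KO2 against Ctrl3, 7 markers were higher at an unadjusted p under 0.05 (9.35% of all genes) and 0 lower (7.48% of all genes), and 0 passed adjusted over all genes.

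**Figure D3:**
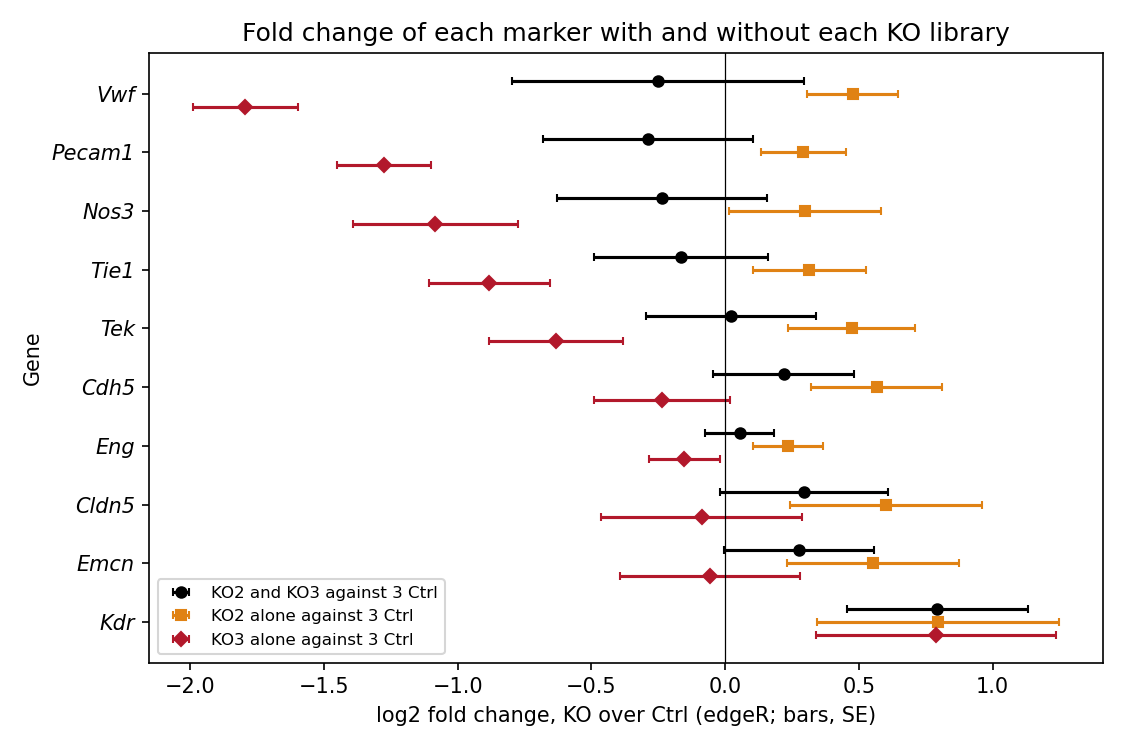
Log2 fold change, KO over Ctrl, of each marker from edgeR with both KO libraries and with KO2 or KO3 alone against 3 Ctrl libraries (bars, SE). Vwf runs from 0.48 with KO2 alone to -1.80 with KO3 alone, while Kdr is at 0.80 and 0.79.

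The markers varied among the Ctrl libraries as well. Ctrl2 was the highest Ctrl library for all 10 and Ctrl3 the lowest for 7, with Ctrl1 the lowest for the other 3. The spread from highest to lowest Ctrl library was 1.11-fold for Eng, 1.20-fold for Pecam1 and 1.26-fold for Vwf, and it reached 2.05-fold for Cldn5 and 2.58-fold for Kdr. Ctrl2 also had the highest erythrocyte marker sum, 297 CPM against 37.9 and 87.6 CPM in Ctrl1 and Ctrl3, and the highest adipocyte sum among Ctrl libraries. Their part in the level of the markers was not tested.

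Lists of other endothelial genes were read in the same way. Of 22 further genes expressed throughout endothelium, 0 passed in either direction, with a median log2 fold change of -0.01. KO2 was above every Ctrl library for 18 of them (27.5% of all genes) and below for 1 (30.5%). KO3 was below every Ctrl library for 14 (30.0% of all genes) and above for 2 (28.5%). For these 2, Fli1 and Cd34, both KO libraries were above every Ctrl library, as for Kdr and for 17.4% of all genes. At an unadjusted p under 0.05, 2 of the 22 were higher, a share near the 9.04% of all genes, and 0 were lower (6.75% of all genes). Cd34, a surface sialomucin found on fibroblasts too, stood at 189 and 175 CPM in KO2 and KO3, against 153, 154 and 144 CPM in Ctrl1, Ctrl2 and Ctrl3.

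Of 11 arterial endothelial genes, 0 passed in either direction and the median log2 fold change was -0.20, with KO3 below every Ctrl library for 7 (30.0% of all genes) and above for 0 (28.5%). KO2 was above every Ctrl library for 4 (27.5% of all genes) and below for 0 (30.5%). Gja5 and Bmx, named here after their values were seen, had the lowest KO3 values relative to Ctrl. Gja5, the gap junction protein connexin 40, stood at 39.7 and 5.07 CPM in KO2 and KO3, against 25.4, 36.1 and 24.1 CPM in Ctrl1, Ctrl2 and Ctrl3. Bmx, a cytoplasmic tyrosine kinase, stood at 19.1 and 3.93 CPM in KO2 and KO3, against 17.3, 20.1 and 13.9 CPM in Ctrl1, Ctrl2 and Ctrl3. Fbln5, the most abundant gene of the list and also made by smooth muscle, had a log2 fold change of 0.00 (SE 0.14, edgeR adjusted p = 0.994).

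Of 12 capillary genes, 0 passed adjusted over all genes, 8 were higher (9.04% of all genes) and 0 lower (6.75%) at an unadjusted p under 0.05, and the median log2 fold change was 0.58. For 9 of the 12 the groups did not overlap, KO being higher, as for 17.4% of all genes. Flt1 is counted both here and in the list of the growth factor system, so the counts of these lists are not independent. Flt4 is likewise counted in that list and in the lymphatic list. Cd36, a fatty acid transporter also made by adipocytes and macrophages, stood at 539 and 581 CPM in KO2 and KO3, against 276, 398 and 284 CPM in Ctrl1, Ctrl2 and Ctrl3 (log2 fold change 0.81, SE 0.171, edgeR adjusted p = 0.115). Gpihbp1, which holds lipoprotein lipase on capillary endothelium and is one of the 12 but is named here after its values were seen, stood at 17.6 and 14.3 CPM in KO2 and KO3, against 8.18, 10.8 and 9.39 CPM in Ctrl1, Ctrl2 and Ctrl3. Adipocyte markers were also higher in both KO libraries, with 6 of 6 above all Ctrl libraries (17.4% of all genes) and a median log2 fold change of 0.64, and so did the brown adipocyte markers, 5 of 5, with a median of 1.03. Their sum was 1012 and 939 CPM in KO2 and KO3 for the brown adipocyte list, against 321, 642 and 243 CPM in Ctrl1, Ctrl2 and Ctrl3. Among Ctrl libraries Ctrl2 was highest for both fat sums and the capillary sum, as it was for all 10 markers. Cd36, which adipocytes also make, gave 398 of the 604 CPM of the capillary sum in Ctrl2. The part of fat in the capillary values was not tested.

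Of 6 lymphatic genes tested 0 passed adjusted over all genes, 3 were higher (9.04% of all genes) and 0 lower (6.75%) at an unadjusted p under 0.05, and the median log2 fold change was 0.70. Lyve1, a hyaluronan receptor that some macrophages carry too, stood at 48.6 and 46.4 CPM in KO2 and KO3, against 22.02, 26.1 and 39.8 CPM in Ctrl1, Ctrl2 and Ctrl3. Macrophage markers summed to 339 and 470 CPM in KO2 and KO3 and to between 212 and 279 CPM in Ctrl. Ccl21a had 0 counts in every library. Of 6 venous genes 0 passed, with a median log2 fold change of 0.11. KO3 was below every Ctrl library for 3 (30.0% of all genes) and above for 0 (28.5%). KO2 was above every Ctrl library for 5 (27.5% of all genes) and below for 0 (30.5%). The medians of the venous list relative to the Ctrl mean were 0.32 in KO2 and -0.21 in KO3.

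**Figure D4:**
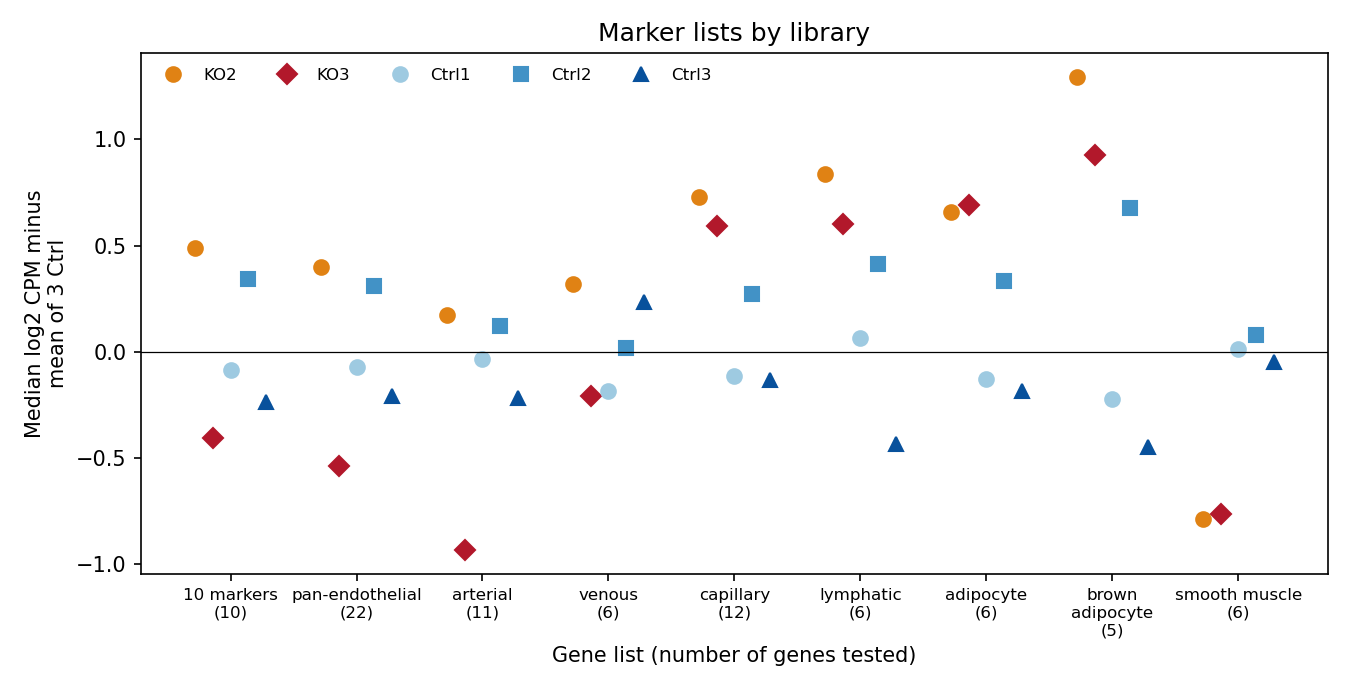
Median over the tested genes of each list of log2 CPM minus the mean of the 3 Ctrl libraries, by library. KO2 and KO3 lie apart for the 10 markers (0.49 and -0.41) and the arterial list (0.17 and -0.93), and together for the capillary (0.73 and 0.59), adipocyte (0.66 and 0.69) and smooth muscle lists (-0.79 and -0.77).

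**Figure D5:**
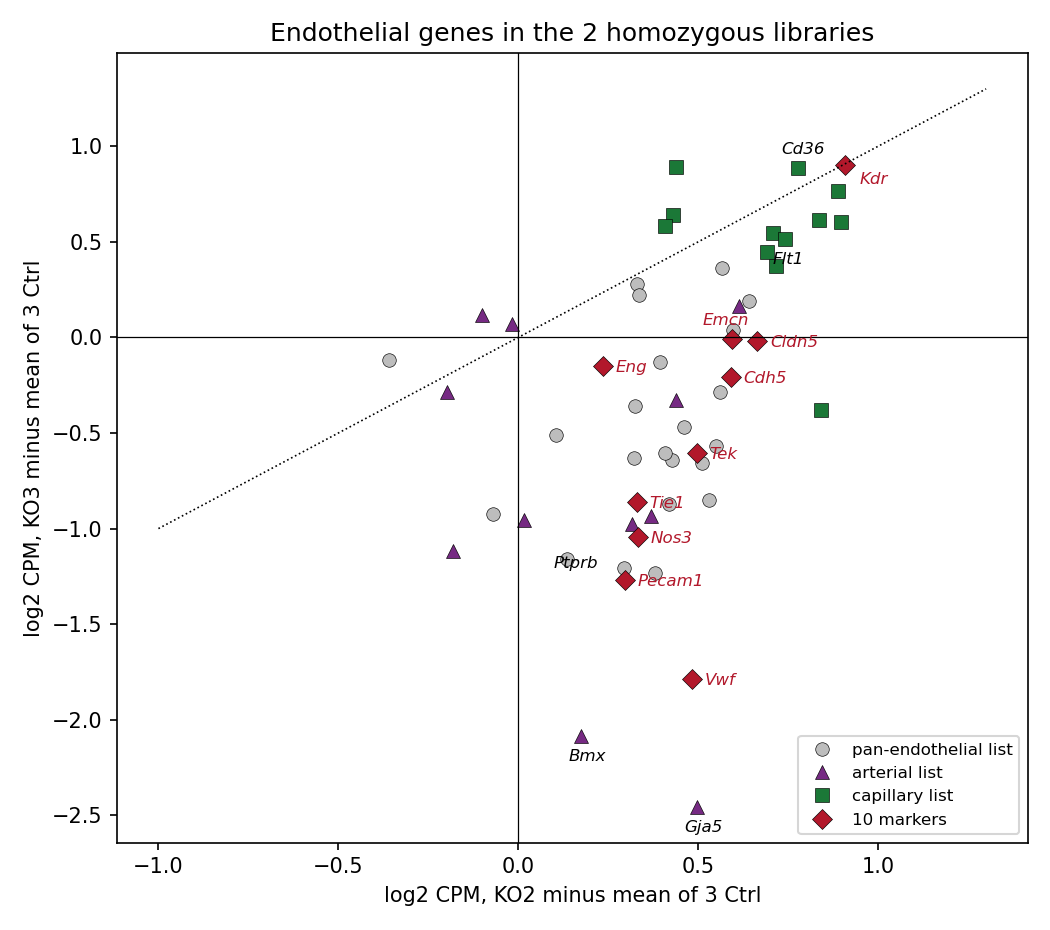
Log2 CPM minus the mean of the 3 Ctrl libraries in KO2 (horizontal axis) and KO3 (vertical axis) for each gene of 4 lists, with equality as a dotted line. Kdr lies on the line among the capillary genes, while Vwf, at 0.48 and -1.78, lies below it toward Bmx and Gja5. Bmx and Gja5 have the lowest KO3 values of the arterial list. Of its 11 genes, 4 (Unc5b, Fbln5, Dll4 and Efnb2) lay inside the Ctrl range in KO3. The capillary gene Plvap, at 0.84 and -0.38, also lies below the line. Selp, of the venous list that is not plotted, had 0.34 and -2.36. The most abundant genes of that list differed less, Nr2f2 with 0.21 and -0.02 and Ephb4 with 0.30 and -0.06. Plvap and Selp are named here after their values were seen.

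Of 9 enzymes and partners of the nitric oxide pathway 0 passed in either direction, with a median log2 fold change of -0.04. Cav1, caveolin-1, which binds Nos3 and is abundant in smooth muscle too, stood at 500 and 444 CPM in KO2 and KO3, against 679, 638 and 566 CPM in Ctrl1, Ctrl2 and Ctrl3 (log2 fold change -0.41, SE 0.12, edgeR adjusted p = 0.182).

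The genes whose library profile was most like the mean profile of the 10 markers were found among all other genes. Likeness was the root mean square difference of log2 CPM, centred on Ctrl, over 5 libraries, among 11550 other genes with a mean of at least 5 CPM. The 10 closest were Nova2, Kif26a, She, Egfl7, Podxl, Hspa12b, Arhgef15, Fgd5, Rasip1 and Cbfa2t3, at differences of 0.0585 to 0.121, against a median of 0.416 over the candidates. She, Egfl7, Podxl, Arhgef15 and Rasip1, 5 of these 10, belong to the list of 22 pan-endothelial genes. That list makes up at most 22 of the 11550 candidates. It was chosen with earlier results of these data known, so the count is a description only. Among the markers themselves Tek was nearest to the mean profile at 0.0468, and Vwf at 0.585 and Kdr at 0.695 were farthest, on opposite sides in KO3.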

How the data were processed

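Raw gene counts, as whole numbers, were deposited for 55453 genes in 5 libraries. The submitters' processing notes name GRCm38, Subread 1.6.4 with featureCounts, the aligner STAR 2.7.0f and fastp 0.20.0, and per the labels a stranded poly(A) kit was used. Neither the annotation release nor whether counting used strand is stated in these sources. The 10 genes and the other gene lists were chosen with earlier results of these data known. Genes were filtered with edgeR's filterByExpr, scaled by TMM and tested with the quasi-likelihood F test of edgeR 4.0.16 (R 4.3.3) on group alone, over 18192 genes, with Benjamini-Hochberg adjustment and a threshold of 0.05. The design left 3 residual degrees of freedom, and edgeR added 4.01 prior degrees of freedom from the variation of all genes. Each p-value thus reflects a gene's variation among 5 individual aortae, moderated toward that of all genes. The fit was tested on simulated data. Alternatives were other size factors, other filters, DESeq2 1.42.0, limma-voom (limma 3.58.1), each library left out, a replicate block and a label-number term. Coordinates and transcript lengths come from GENCODE M21 (GRCm38), which names 54510 of the 55453 symbols, and upstream windows from RefSeq (GRCm38.p6). Counts of every library pair differed by more than sampling noise. All 10 markers are named, with the most abundant members of a list where a result turns on them. Some other genes, among them Gja5, Bmx, Gpihbp1, Plvap and Selp, were named after their values were seen.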

Additional observations from a re-analysis of the deposited data

How the results depend on the processing

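No marker was called higher or lower by edgeR under any alternative except Kdr, called higher with no low-count filter (1 of 10). Omitting any 1 library left 0 markers called. The median log2 fold change of the 10 markers was 0.66 with a term for the label numbers, a fit that rests on KO2 against Ctrl3 alone, and leaving out single libraries gave -0.43 to 0.48. In that label-number fit Pecam1 (0.38), Vwf (0.56), Tie1 (0.54) and Nos3 (0.55) turned positive. Tek turned negative with limma-voom (-0.064) and with the replicate block (-0.097). The labels do not say whether the replicate numbers pair animals. Same-numbered KO and Ctrl libraries had correlations of -0.00991 and -0.194 in their deviations from the group mean over 18192 genes. KO2 and KO3 are the only KO libraries, so their deviations mirror each other. These correlations therefore cannot show whether libraries are paired. With the block, Kdr had an adjusted p of 0.192.

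With each library left out, log2 fold changes ranged from -1.80 to 0.48 for Vwf, -1.28 to 0.29 for Pecam1, -1.08 to 0.30 for Nos3, -0.88 to 0.31 for Tie1, -0.63 to 0.47 for Tek, -0.24 to 0.57 for Cdh5, -0.15 to 0.24 for Eng, -0.058 to 0.57 for Emcn, -0.087 to 0.60 for Cldn5 and 0.55 to 1.25 for Kdr. In these fits, markers whose groups did not overlap numbered 1 to 9 with KO above and 0 to 6 with KO below. The 9 arose without KO3 and the 6 without KO2, where KO is 1 library. KO2 was above every Ctrl library for 27.5% of all genes, and KO3 below for 30.0%. With both KO libraries kept, 1 or 2 markers were above and 0 below. In the main fit these shares were 17.4% and 18.2% of all genes. The count stayed at 1 above and 0 below with DESeq2 size factors. It was not run for the DESeq2, limma-voom, block or number-term tests. Over all genes, the calls higher and lower were 982 and 432 with no low-count filter, 524 and 411 by DESeq2, 0 and 1 by limma-voom, 3 and 2 with the block, and 8 and 1 with the number term. They ranged from 0 to 139 higher and 0 to 9 lower with each library left out. The cause was not tested.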
